A study of Mus musculus with 6 samples.

Results

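The 46 genes described here code for proteins that handle oxidants, glutathione, iron and metals. They were chosen by symbol, with earlier results of these data known, and all 46 are among the 23183 gene symbols of the 6 count tables. By role they fall into 7 groups. These are 4 regulators of the transcription factor NRF2, the factor itself included, 13 NRF2 targets and 13 enzymes that remove peroxides and superoxide. Another 5 are genes of iron and heme handling, 2 of lipid peroxidation and 4 of the metal response. The last 5 are genes of NADPH supply and the pentose phosphate pathway. The RNA came from tumours of UV2237M, a mouse fibrosarcoma line (a malignant line of connective tissue cells), with the genotype given as WT in all 6 samples. The 3 untreated tumours received no treatment. The 3 treated tumours received gold nanoclusters (GNC), very small particles of gold, on day 1 and day 7, with near-infrared (NIR) light. The labels list no group with gold or light alone, so the parts of gold and of light cannot be told apart. All tumours are of 1 cell line, and the labels name neither the host strain, nor the time from the last treatment to harvest, nor whether each tumour grew in its own animal. The p-values therefore measure the spread between these samples. The comparison asks how gene expression in the tumours differed after GNC with NIR light, which the series title names as the guide to a photothermal drug combination.

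Cells hold NRF2 (*Nfe2l2*) at a low level because KEAP1 delivers it to degradation. Oxidants and electrophiles modify cysteines of KEAP1, NRF2 then accumulates, and with small MAF proteins it binds antioxidant response elements of genes for glutathione synthesis, thioredoxin reduction and NADPH supply. Peroxiredoxins and glutathione peroxidases spend this reducing power on peroxides, and GPX4 does so for lipid peroxides in membranes, the step that holds back ferroptosis, an iron-dependent cell death. Free iron feeds the formation of lipid peroxides, and ferritin stores iron. Iron regulatory proteins that bind iron response elements in mRNA set how much ferritin and transferrin receptor is made. Metallothioneins are small cysteine-rich proteins that bind zinc, copper and other metals, and the zinc-sensing factor MTF1 switches their genes on through metal response elements.

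The iron response element is shown for the 4 iron genes in which a search found it, because it is an RNA signal by which cells couple these mRNAs to iron. The pattern searched in the sense strand of GENCODE M21 transcripts was a C, 5 stem bases, the loop CAGTGN with any last base but G, and 5 bases that pair with the stem. It was found in 227 of 22500 genes with a coding transcript (1.01%) and in 5 of the 46 members, the fifth being *Keap1*, with 1 match inside its coding sequence. The element lies before the coding sequence, in the 5′ UTR, of *Fth1*, *Ftl1* and *Slc40a1*. In *Tfrc* the search found 4 matches after the coding sequence, in the 3′ UTR. An element that departs from the pattern would not be found. Capitals mark the loop of 6 bases, and sequences are 5′ to 3′ in DNA letters.
Fth1: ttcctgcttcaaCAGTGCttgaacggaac
Ftl1: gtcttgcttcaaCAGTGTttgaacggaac
Slc40a1: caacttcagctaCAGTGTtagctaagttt
Tfrc 1: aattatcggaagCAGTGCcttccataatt
Tfrc 2: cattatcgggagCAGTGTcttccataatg
Tfrc 3: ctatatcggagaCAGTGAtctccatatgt
Tfrc 4: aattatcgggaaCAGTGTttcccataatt

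Selenocysteine, the selenium form of cysteine, is the catalytic residue of 4 members, and its codon is TGA, elsewhere a stop. The coding sequences around it are shown for all members that have one. Of these genes 2, *Gpx3* and *Txnrd1*, are among the 4 members with the smallest p below. Capitals mark the in-frame TGA in the GENCODE M21 coding sequence. It is codon 47 of 201 in *Gpx1*, 73 of 226 in *Gpx3*, 129 of 253 in *Gpx4* and 612 of 613 in *Txnrd1*, with the stop codon not counted.
Gpx1: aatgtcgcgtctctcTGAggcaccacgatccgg
Gpx3: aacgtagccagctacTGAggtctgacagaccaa
Gpx4: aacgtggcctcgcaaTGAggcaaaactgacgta
Txnrd1: ctccagtctggctgcTGAggttaa

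The untreated tumours were not alike, and untreated 2 lay farthest from all others. Its mean distance was 1.22 log2 CPM (counts scaled to library size), where the rest had 0.611 to 0.729, and the biological coefficient of variation was 33.7% with it and 17.3% without it. Results are therefore given with and without this library. Total counts per library were 4680295 to 8019294. Markers of fibroblasts and fibrosarcoma, all 10 detected, summed to 27602 to 38809.7 CPM in untreated and 27138 to 34829 CPM in treated tumours. Their sum was thus high in every tumour, though they do not part tumour cells from host fibroblasts. *Col3a1* alone gave 12570 to 22445 CPM of it. Single markers differed, and untreated 2 was far below the rest for *Col1a1* (59.4 CPM), *Col1a2* (48.0) and *Fn1* (1043). The next lowest tumour for each held 1975, 326 and 2698 CPM. Untreated 2 was highest for *S100a4* (2389 CPM) and *Lum* (1317 CPM). *Thy1* stayed at 10.3 to 41.4 CPM. Keratinocyte markers, 9 of 10 listed in the tables, summed to 1270.2, 598 and 5.89 CPM in untreated and 20.7, 4.35 and 66.6 CPM in treated tumours, and skeletal muscle markers, all 8 in the tables, to 93.2, 40.6 and 19.0 and 21.3, 3.40 and 428 CPM. Markers of adipocytes, red cell precursors, T and NK cells and hepatocytes summed to at most 33.3 CPM in any library, with *Hba-a2*, *Hbb-bs*, *Cd3e*, *Ttr* and *Fgb* at 0 counts in all 6. Untreated 2 was the highest or lowest library in 26 members (56.5%), against 76.9% of all tested genes. It held 3.03 times the mean of the other 5 libraries for *Gpx4*, 2.72 times for *Prdx4*, 2.09 times for *Prdx5* and 2.07 times for *Tfrc*. For *Hmox1* it held 0.25 times that mean, for *Osgin1* 0.35 times, for *Sod3* 0.36 times and for *Txnrd1* 0.40 times. That mean includes the treated tumours, and for *Hmox1* and *Sod3* untreated 1 was nearly as low as untreated 2, as given below.

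The 46 transcripts spanned a wide range of levels. Per kilobase of the longest annotated transcript, which may not be the one expressed, the mean over the 6 tumours was 1915 CPM for *Ftl1* and 434 CPM for *Fth1*, the light and heavy chains of ferritin. *Mt2*, a metallothionein, followed at 336 CPM per kilobase, then the glutathione peroxidases *Gpx4* at 258 and *Gpx1* at 199, *Prdx1* at 169, *Sqstm1* at 145 and *Mt1* at 136. At the low end were the zinc sensor *Mtf1* at 4.56, the extracellular superoxide dismutase *Sod3* at 3.52, the cystine transporter *Slc7a11* at 2.09 and *Osgin1* at 1.49 CPM per kilobase. The counts of *Osgin1* went as low as 6 in 1 library. The 46 genes together held 5261, 7166 and 6743 CPM in the untreated tumours, numbered 1, 2 and 3, and 7315, 7004 and 8372 CPM in the treated tumours in the same order. The groups overlapped in this sum.

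**Figure D1:**
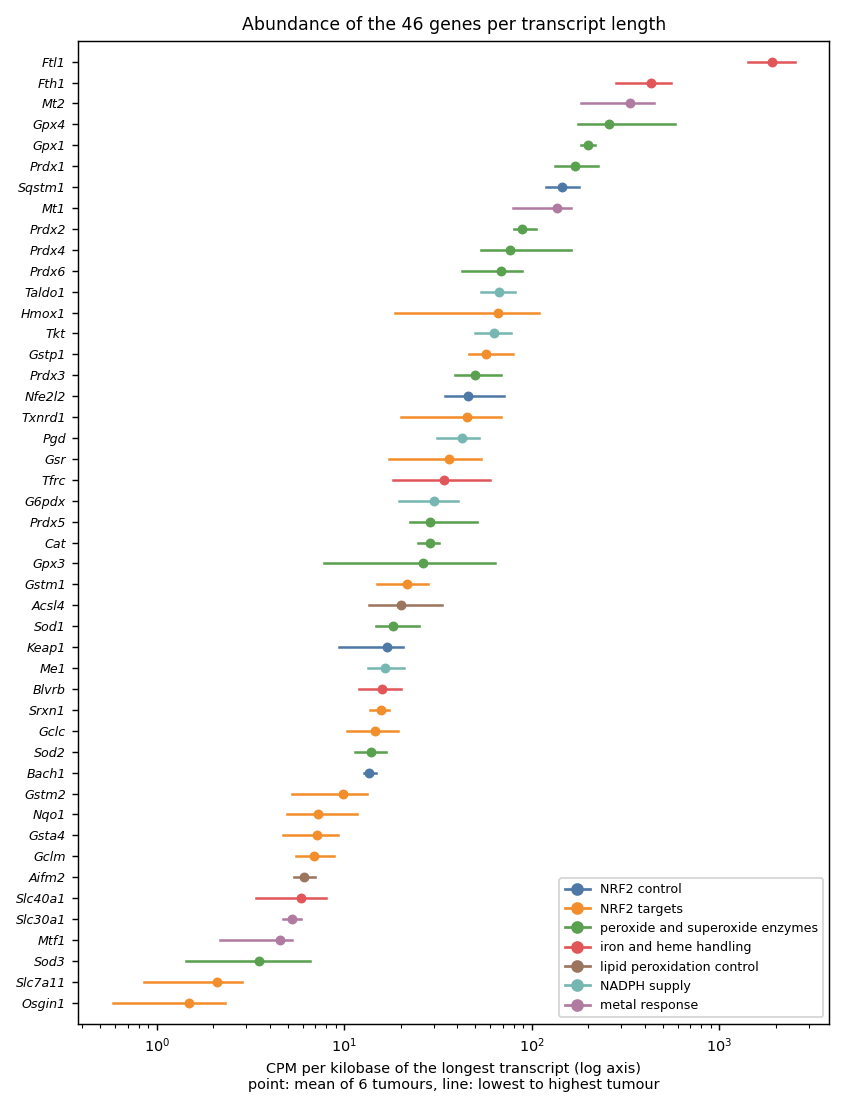
Level of the 46 genes as CPM per kilobase of the longest annotated transcript, on a log axis, sorted by level and coloured by the 7 groups; points are means of 6 tumours and lines run from the lowest to the highest tumour. *Ftl1* lies highest at 1915 and *Osgin1* lowest at 1.49 CPM per kilobase.

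No member passed the test between treated and untreated tumours. All 46 were expressed highly enough to be tested, and edgeR's quasi-likelihood test called 0 of them at a Benjamini-Hochberg adjusted p under 0.05, as it called 0% of the 12517 genes tested (smallest adjusted p 0.592). limma-voom and DESeq2 on the 6 libraries also called 0 members, while DESeq2 called 0.104% of its genes higher and 0.209% lower. At an unadjusted p under 0.05, edgeR had 4 members higher in treated tumours (8.70% of 46), *Gpx3*, *Sod3*, *Txnrd1* and *Prdx6*, and 0 lower, where the shares over all tested genes were 8.17% in either direction, 3.32% higher and 4.85% lower. The log2 fold change was above 0 in 33 of 46 members (71.7%) and in 49.9% of all tested genes, and its median was 0.20 over the members and -0.00103 over all. In 11 members (23.9%) each treated tumour lay above each untreated one, against 10.6% of all tested genes, and in 1 member (2.17%) below, against 10.2%. The 11 were *Txnrd1*, *Gclc*, *Srxn1*, *Slc7a11*, *Gstp1*, *Prdx2*, *Prdx6*, *Ftl1*, *Pgd*, *Mt1* and *Mt2*, and the 1 was *Slc30a1*. Because the members were chosen with earlier results of these data known, these shares and those below are descriptions only. In bulk tumour RNA, fewer cells of a type and less RNA per cell cannot be told apart.

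Without untreated 2, edgeR again called 0 members and 0% of genes, with 17 members at an unadjusted p under 0.05, all of them higher (37.0%), against 18.4% of all tested genes in either direction, 9.55% higher and 8.85% lower. The log2 fold change was then above 0 in 35 members (76.1%), against 50.1% of all genes, and each treated tumour lay above both untreated ones in 20 members (43.5%) and below in 2 (4.35%), where 19.6% of all genes lay above and another 19.6% below. DESeq2 on these 5 libraries called 3 members higher, *Tfrc*, *Prdx6* and *Prdx1*, and 0 lower, against 1.11% of its genes higher and 1.34% lower. Dropping that library turned 5 members from lower to higher (*Sqstm1*, *Gpx4*, *Prdx4*, *Prdx5* and *Acsl4*) and 3 from higher to lower (*Keap1*, *Gsta4* and *Mtf1*). Other libraries decided the count of 4 as well. It was 1 without untreated 1, 8 without untreated 3, 2 without treated 1 and 0 without treated 3.

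**Figure D2:**
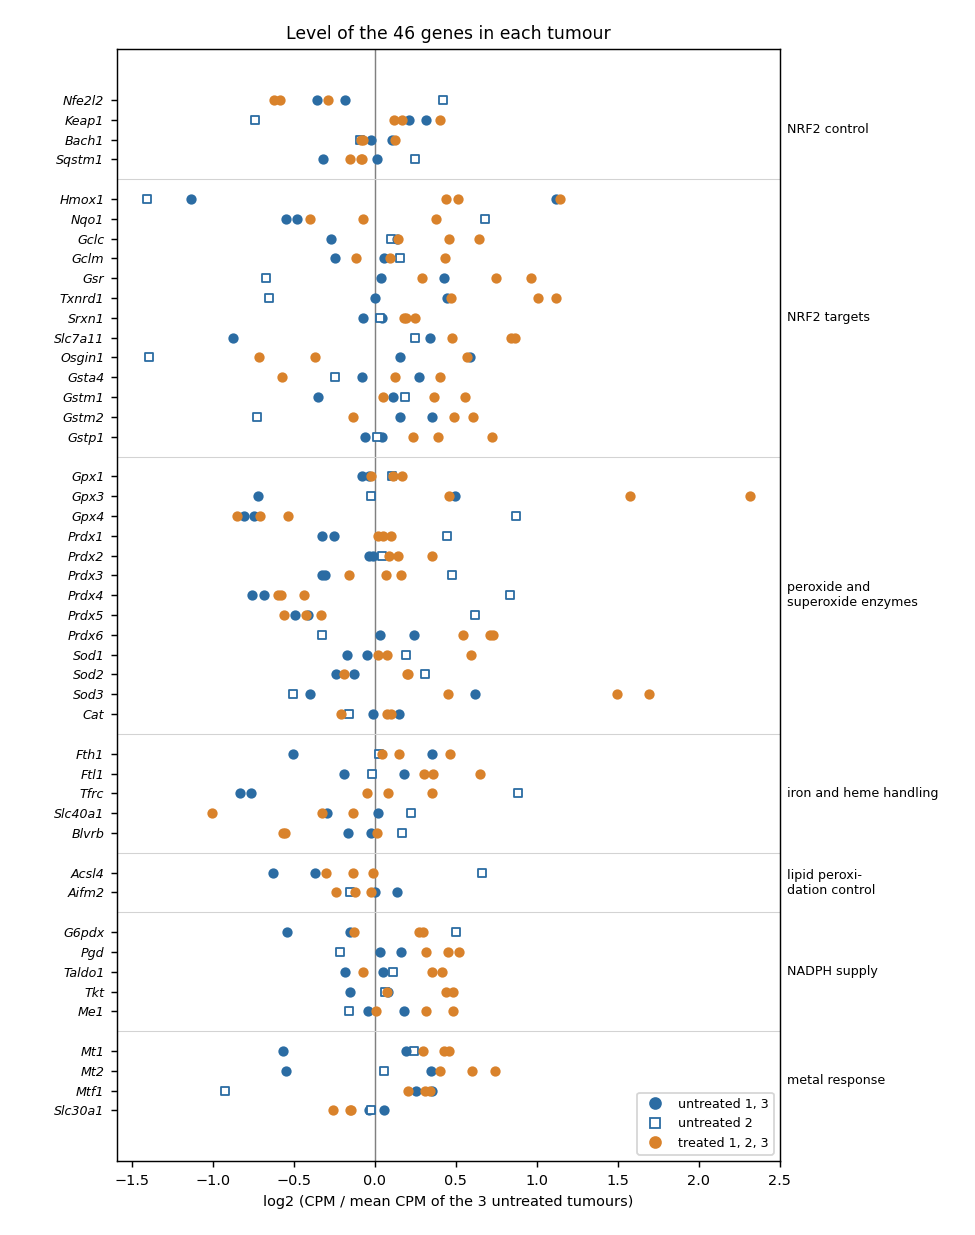
Each row is 1 of the 46 genes, sorted by group, and the horizontal axis is the log2 ratio of its CPM in a tumour to its untreated mean. Blue marks untreated and orange treated tumours, and the open square is untreated 2, which lies far from the other tumours in *Gpx4*, *Prdx4* and *Tfrc*.

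**Figure D3:**
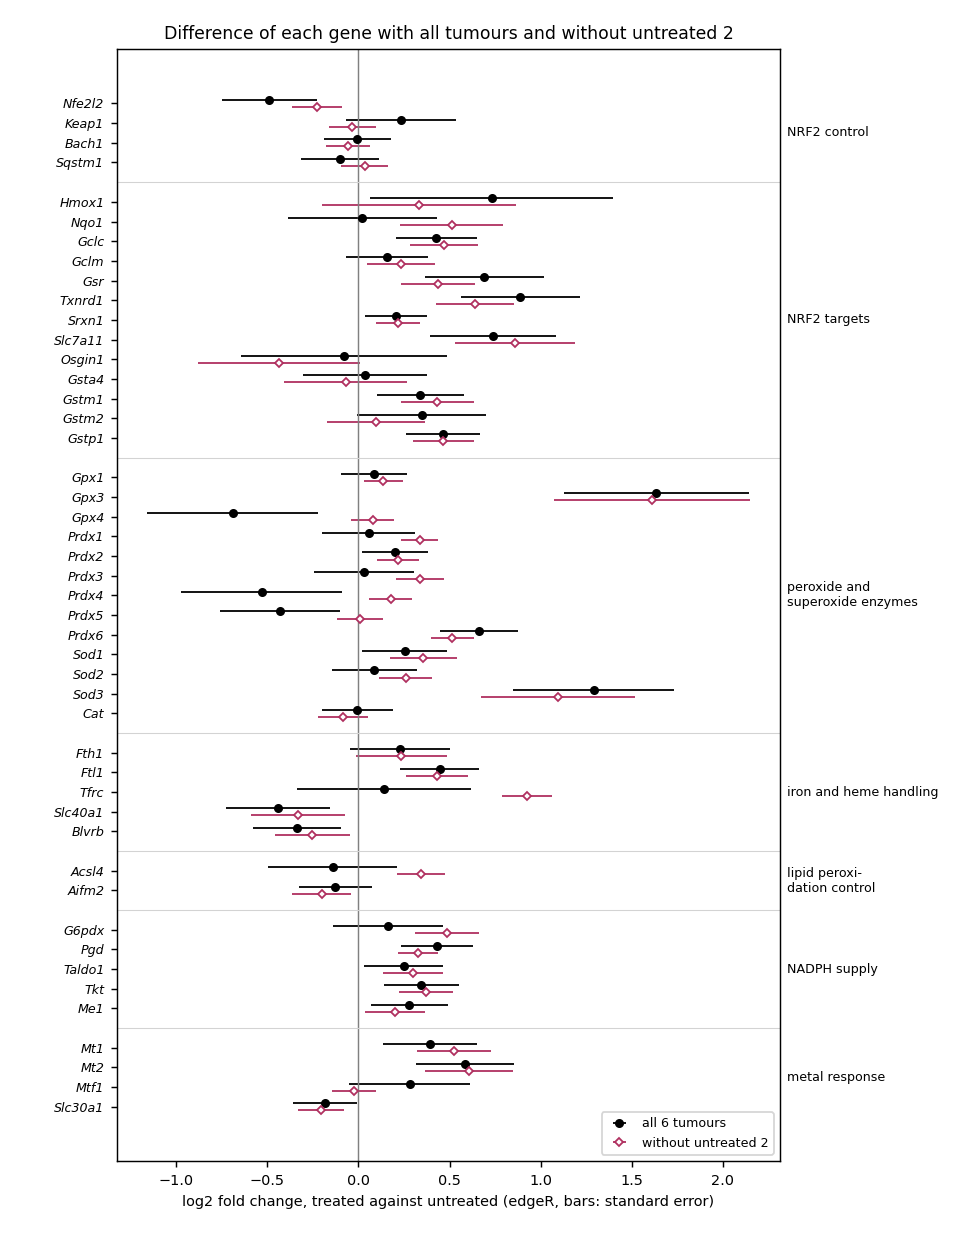
Log2 fold change of treated against untreated tumours from edgeR for the 46 genes by group, with bars of 1 SE, from all 6 libraries and from the 5 without untreated 2. The median is 0.20 with 6 libraries and 0.28 with 5, and *Tfrc* moves from 0.14 to 0.93.

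None of the 4 regulators of NRF2 passed the test, and each overlapped between the groups. Values below are for tumours 1, 2 and 3 of each group in that order. *Nfe2l2*, the gene for NRF2 itself, had 103, 176 and 116 CPM in untreated and 85.6, 108 and 87.7 CPM in treated tumours, overlapping, with untreated 2 highest. Its log2 fold change was -0.49 ± 0.26 (SE; edgeR, adjusted p = 0.597), and -0.23 ± 0.14 without untreated 2. *Keap1*, the adaptor that marks NRF2 for degradation, had 70.0, 33.7 and 65.3 CPM in untreated and 63.3, 61.1 and 74.5 CPM in treated tumours. Untreated 2 was the lowest of the 6, and the log2 fold change was 0.23 ± 0.30 with it and -0.035 ± 0.13 without it. The ratio of *Keap1* to *Nfe2l2* was 0.682, 0.191 and 0.562 in untreated and 0.739, 0.567 and 0.850 in treated tumours, so only untreated 2 lay far from the rest. *Sqstm1*, an autophagy receptor that binds KEAP1, ran at 320.2, 476 and 404 CPM in untreated and 379, 378 and 361 CPM in treated tumours and overlapped. *Bach1*, a heme-sensing repressor of the same elements, was at 74.5 to 86.6 CPM in all 6, with a log2 fold change of -0.0069 ± 0.18. Of these 4 genes 1 was above 0 and 3 below, with a median of -0.055.

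Among the 13 NRF2 targets 12 had a log2 fold change above 0 and 1 below, with a median of 0.35 (0.22 without treated 3), and in 5 the groups did not overlap. *Txnrd1* (chr10:82833951-82897712, mm10, plus strand) codes for cytosolic thioredoxin reductase, which keeps thioredoxin reduced with NADPH. It had 114, 72.5 and 156 CPM in untreated and 229, 158 and 247 CPM in treated tumours, so the lowest treated tumour lay just above the highest untreated one. Its mean was 212 ± 47.1 CPM in treated and 114 ± 41.6 CPM in untreated tumours (SD, n = 3), a log2 fold change of 0.89 ± 0.33 (SE; edgeR, adjusted p = 0.592). Without untreated 2 it was 0.64 ± 0.21, with an adjusted p of 0.236 from edgeR and 0.088 from DESeq2. *Slc7a11*, the transporter that brings in cystine for glutathione, had 7.87, 17.2 and 18.3 CPM in untreated and 26.3, 20.1 and 25.9 CPM in treated tumours. The groups did not overlap, but untreated 1 was far below the other untreated tumours, and the log2 fold change of 0.74 ± 0.35 was 0.43 without it. *Gstp1*, a glutathione transferase, had 40.7, 39.7 and 37.8 CPM in untreated and 51.7, 46.4 and 65.0 CPM in treated tumours. The untreated tumours were nearly equal and each treated one was higher, with a log2 fold change of 0.46 ± 0.20 (SE; edgeR, adjusted p = 0.592). Reads of *Gstp1* and its near-copy *Gstp2* may have been shared in the counting.

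Glutathione synthesis starts with glutamate-cysteine ligase, whose catalytic subunit is *Gclc* and whose modifier is *Gclm*. *Gclc* was at 35.4 to 46.9 CPM in untreated and 47.2 to 66.5 CPM in treated tumours, a log2 fold change of 0.43 ± 0.22, and the groups did not overlap. *Gclm* overlapped, at 30.9 to 40.8 CPM in untreated and 33.7 to 49.4 CPM in treated tumours, a log2 fold change of 0.16 ± 0.22 that was -0.0048 without treated 3. Glutathione reductase, *Gsr*, which returns oxidised glutathione to its reduced form, had means of 119.5 ± 27.1 CPM in treated and 73.9 ± 26.6 CPM in untreated tumours (SD, n = 3) and a log2 fold change of 0.69 ± 0.33, 0.44 ± 0.21 without untreated 2. *Srxn1*, which repairs over-oxidised peroxiredoxins, was tight in both groups, at 38.8 to 42.0 CPM in untreated and 46.2 to 48.6 CPM in treated tumours, with a log2 fold change of 0.21 ± 0.17. The quinone reductase *Nqo1*, a widely used NRF2 target, was low at 7.71 to 18.1 CPM with a log2 fold change of 0.021 ± 0.41 that became 0.51 ± 0.28 on leaving out untreated 2. *Osgin1*, an oxidative stress response gene, had -0.079 ± 0.57. The transferases *Gsta4*, *Gstm1* and *Gstm2*, which couple glutathione to electrophiles, had log2 fold changes of 0.037 ± 0.34, 0.34 ± 0.24 and 0.35 ± 0.36, and *Gstm1* and *Gstm2* belong to a family of similar genes that can share reads. *Gstm1* was at 0.18 without untreated 1 and 0.22 without treated 3, and *Gstm2* at 0.10 without untreated 2, 0.21 without treated 3 and 0.56 without untreated 3.

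*Hmox1* (chr8:75093621-75100589, plus strand), heme oxygenase 1, breaks heme down to biliverdin, carbon monoxide and iron, and is also abundant in macrophages that clear heme. It had 35.2, 29.2 and 168 CPM in untreated and 105, 111 and 171 CPM in treated tumours. Untreated 3 was nearly as high as treated 3 and above the other treated tumours, so the groups overlapped, and untreated 1 and 2 were the lowest of the 6. The log2 fold change was 0.73 ± 0.67 (SE; edgeR, adjusted p = 0.706), and it was 2.0 without untreated 3, 0.38 without untreated 1 and 0.33 without untreated 2. Neutrophil markers, 10 listed and 6 tested, summed to 32.4, 25.4 and 109 CPM in untreated and 129, 92.5 and 138 CPM in treated tumours. Untreated 3 was thus also the high untreated tumour there. Of these sums *Mmp9* alone gave 18.8, 5.80 and 61.6 CPM in untreated and 42.9, 56.3 and 55.9 CPM in treated tumours. Macrophage markers, 12 listed and 9 tested with 2 higher and 7 lower, summed to 1224, 2613 and 1541 CPM in untreated and 668, 1339 and 969 CPM in treated tumours. The part of either cell type in the *Hmox1* result was not tested.

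The antioxidant response element core TGACNNNGC was searched on both strands in RefSeq promoter windows (GRCm38.p6, the build named mm10), each 250 bases before to 50 after a gene's start. Of 46 members 39 had a window, 50 windows in all, these being all but *Hmox1*, *Gclc*, *Gsr*, *Gsta4*, *Prdx6*, *Sod3* and *Slc40a1*. The core was in 11 of the 50 windows (22%), against 12.4% of 32851 promoters. Of the NRF2 targets it was in *Gclm*, *Srxn1* and *Txnrd1*. The other members with it were *Nfe2l2*, *Prdx1*, *Sod1*, *G6pdx*, *Pgd*, *Me1*, *Mt2* and *Slc30a1*. The NRF2 targets *Nqo1*, *Slc7a11*, *Osgin1*, *Gstm1*, *Gstm2* and *Gstp1* had windows without it. A match is a description of letters and marks no binding. The window of *Txnrd1* below is shown because *Txnrd1* is the NRF2 target with the smallest p. Of its 3 windows only the middle one holds the core, and that one is printed, chr10:82858956-82859255, plus strand. Capitals mark the core, which reads on the minus strand at -92 from the start.
Txnrd1: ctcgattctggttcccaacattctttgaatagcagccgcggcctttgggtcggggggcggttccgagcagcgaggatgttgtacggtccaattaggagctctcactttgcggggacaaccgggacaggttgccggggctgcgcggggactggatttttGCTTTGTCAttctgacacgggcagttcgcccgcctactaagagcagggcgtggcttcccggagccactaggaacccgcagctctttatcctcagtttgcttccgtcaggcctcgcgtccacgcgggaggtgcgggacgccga

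**Figure D4:**
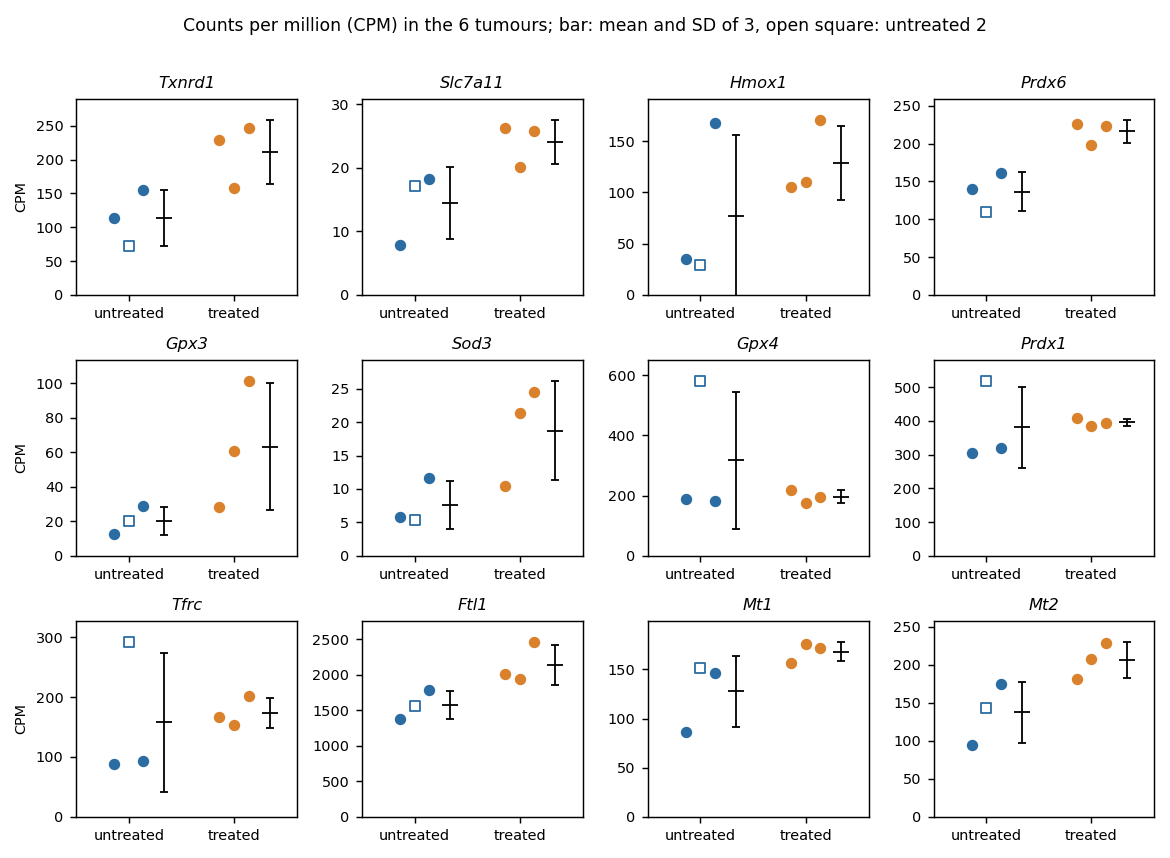
CPM of 12 genes in each tumour, 1 panel a gene, with each vertical axis starting at 0 and the bar beside a group giving its mean and SD over 3 tumours (the lower bar of untreated *Hmox1* runs below 0 and is not drawn there). The open square is untreated 2, which lies above the other 5 tumours in *Gpx4*, *Prdx1* and *Tfrc* and below them in *Txnrd1*, *Hmox1*, *Prdx6* and *Sod3*.

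Among the 13 genes that remove peroxides and superoxide, the log2 fold changes of the secreted enzymes *Gpx3* and *Sod3* were the highest. *Gpx3* (chr11:54902453-54910377, plus strand), the glutathione peroxidase of plasma and extracellular fluid, had 12.4, 20.1 and 28.7 CPM in untreated and 28.1, 60.7 and 101 CPM in treated tumours. Treated 3 and treated 2 were above every untreated tumour, and treated 1 lay just under untreated 3. The means were 63.4 ± 36.8 CPM in treated and 20.4 ± 8.16 CPM in untreated tumours (SD, n = 3), a log2 fold change of 1.63 ± 0.51 (SE; edgeR, adjusted p = 0.592), the highest of the 46, and 1.61 ± 0.54 without untreated 2. *Sod3* (chr5:52363791-52371418, plus strand), the extracellular superoxide dismutase, had 5.75, 5.36 and 11.7 CPM in untreated and 10.4, 21.4 and 24.5 CPM in treated tumours. Again treated 1 was the lowest treated tumour and untreated 3 the highest untreated one, and the groups overlapped. Its means were 18.7 ± 7.42 CPM in treated and 7.59 ± 3.53 CPM in untreated tumours (SD, n = 3), a log2 fold change of 1.29 ± 0.44 (SE; edgeR, adjusted p = 0.592). Endothelial markers, 8 listed and 8 tested, summed to 97.1, 90.4 and 165 CPM in untreated and 130.2, 175 and 209 CPM in treated tumours. Their sum was likewise lowest in treated 1 within the treated group and highest in untreated 3 within the untreated group. Within that list *Emcn* and *Tek* departed from this order. Some markers of other cell types had it too, such as *Col1a1*, *Col1a2* and *Cd163*, though the fibroblast and macrophage sums did not. The part of any cell type in the *Gpx3* and *Sod3* results was not tested.

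*Prdx6* (chr1:161240112-161251219, minus strand), the peroxiredoxin with 1 active cysteine, which also repairs oxidised phospholipids, had 139, 109 and 161 CPM in untreated and 226, 199 and 223 CPM in treated tumours. Each treated tumour lay above each untreated one. The means were 216 ± 15.1 CPM in treated and 137 ± 26.3 CPM in untreated tumours (SD, n = 3), a log2 fold change of 0.66 ± 0.22 (SE; edgeR, adjusted p = 0.592). Without untreated 2 it was 0.52 ± 0.12, and DESeq2 then called *Prdx6* with an adjusted p of 0.0158, against 0.227 from edgeR. *Prdx1*, an abundant cytosolic peroxiredoxin, had 304, 518 and 319.8 CPM in untreated and 407, 385 and 394 CPM in treated tumours. The treated tumours lay close together between untreated 2 and the other untreated tumours, and the log2 fold change was 0.055 ± 0.26 with all libraries. Without untreated 2 it was 0.34 ± 0.10, with an adjusted p of 0.0424 from DESeq2 and 0.227 from edgeR. The cytosolic *Prdx2* did not overlap, at 130.2 to 138 CPM in untreated and 142 to 170.2 CPM in treated tumours, a log2 fold change of 0.20 ± 0.18. The mitochondrial *Prdx3*, the endoplasmic reticulum form *Prdx4* and *Prdx5* were all highest in untreated 2. Their log2 fold changes of 0.032, -0.53 and -0.43 became 0.34, 0.18 and 0.0082 without it. The 6 peroxiredoxins summed to 734, 1125 and 771 CPM in untreated and 970.2, 899 and 974 CPM in treated tumours.

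*Gpx4*, the selenoenzyme that reduces lipid peroxides in membranes, had 189, 580.4 and 181 CPM in untreated and 219, 176 and 194 CPM in treated tumours. Only untreated 2 stood out, and the other 5 tumours lay together. The log2 fold change was -0.69 ± 0.47 with that library (SE; edgeR, adjusted p = 0.638) and 0.077 ± 0.12 without it. *Gpx1*, the glutathione peroxidase of the cytosol and mitochondria, was even in all 6 tumours at 196 to 232 CPM, with a log2 fold change of 0.087 ± 0.18. Of the 4 members with a selenocysteine codon shown above, *Gpx3* and *Txnrd1* lay higher in treated tumours at an unadjusted p under 0.05, and *Gpx1* and *Gpx4* did not. The cytosolic *Sod1*, the mitochondrial *Sod2* and catalase, *Cat*, which split superoxide or hydrogen peroxide without NADPH, had log2 fold changes of 0.25 ± 0.23, 0.086 ± 0.23 and -0.0056 ± 0.20. That of *Sod1* was 0.051 without treated 3, its highest tumour. Over the 13 genes 9 were above 0 and 4 below, with a median of 0.086, and without untreated 2 the split was 12 to 1 with a median of 0.26. The median of the 13 was -0.020 without untreated 1, 0.051 without untreated 3 and 0.030 without treated 1.

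Ferritin transcripts were the most abundant of the set. The groups overlapped for *Fth1*, the heavy chain that oxidises iron for storage, which had 581, 839.7 and 1051 CPM in untreated and 849, 912 and 1137 CPM in treated tumours. *Ftl1* (chr7:45457944-45459884, minus strand), the light chain, had 1378, 1554 and 1779 CPM in untreated and 2012, 1939.9 and 2461 CPM in treated tumours, and each treated value was above each untreated one. Its log2 fold change was 0.44 ± 0.22 (SE; edgeR, adjusted p = 0.592), while that of *Fth1* was 0.23 ± 0.27, or 0.021 without untreated 1. Summed, both chains had 1959, 2394 and 2830.3 CPM in untreated and 2861, 2852 and 3598 CPM in treated tumours. The mouse genome holds several processed copies of both ferritin genes, so reads may have been split among them.

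*Tfrc* (chr16:32608920-32632794, plus strand) codes for the transferrin receptor through which cells take in iron, and the search above found 4 elements in it. It had 89.1, 293 and 93.5 CPM in untreated and 168, 153 and 202 CPM in treated tumours. Untreated 2 was the highest of the 6, and the other untreated tumours were the lowest. The log2 fold change was 0.14 ± 0.48 with all libraries (SE; edgeR, adjusted p = 0.925), -0.16 without untreated 1 and -0.13 without untreated 3. Without untreated 2 it was 0.93 ± 0.14, with an adjusted p of 6.42e-06 from DESeq2 and 0.227 from edgeR. The iron exporter ferroportin, *Slc40a1*, was at 21.8, 31.2 and 27.1 CPM in untreated and 24.3, 21.4 and 13.3 CPM in treated tumours, overlapping. Its log2 fold change was -0.44 ± 0.29, and -0.22 without treated 3, the lowest tumour. *Blvrb*, a biliverdin reductase, had 23.9, 30.1 and 26.4 CPM in untreated and 18.2, 18.1 and 27.1 CPM in treated tumours. The log2 fold change of *Blvrb* was -0.34 ± 0.24. Macrophages also express ferroportin strongly, and the part of those cells, whose summed markers are given beside *Hmox1*, was not tested. Of the 5 iron and heme genes 3 were above 0 and 2 below, with a median of 0.14, which was -0.16 without untreated 1 and -0.13 without untreated 3.

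Of the pair for lipid peroxidation, *Acsl4* attaches coenzyme A to polyunsaturated fatty acids, which makes membranes open to peroxidation, and *Aifm2* (FSP1) reduces coenzyme Q and guards against it. *Acsl4* had 71.5, 175 and 85.7 CPM in untreated and 109.9, 90.0 and 101 CPM in treated tumours, with untreated 2 far above the rest. Its log2 fold change was -0.14 ± 0.35 with that library and 0.34 ± 0.13 without it. *Aifm2* had 19.7, 17.6 and 21.6 CPM in untreated and 16.6, 19.3 and 18 CPM in treated tumours, overlapping, with a log2 fold change of -0.13 ± 0.20. Without untreated 2 its treated values lay below both remaining untreated ones.

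All 5 genes of NADPH supply and the pentose phosphate pathway had a log2 fold change above 0, and 0 passed the test. The median was 0.28 (0.17 without treated 3). *Pgd*, the phosphogluconate dehydrogenase of the pentose phosphate pathway, had 135, 114 and 147 CPM in untreated and 181, 164 and 189.6 CPM in treated tumours. The groups did not overlap, and the log2 fold change was 0.43 ± 0.20 (SE; edgeR, adjusted p = 0.592). *Tkt*, transketolase of the same pathway, had 159.9, 186 and 188 CPM in untreated and 241, 188 and 249 CPM in treated tumours. Treated 2 was level with untreated 3, and the other treated tumours were higher, with a log2 fold change of 0.35 ± 0.20, or 0.14 with the GC and length correction. *Me1*, the cytosolic malic enzyme, had 55.5, 44.0 and 47.6 CPM in untreated and 61.0, 49.2 and 68.4 CPM in treated tumours, which overlapped, and 0.28 ± 0.21. The log2 fold change of *G6pdx*, the enzyme of the first step of the pathway, was 0.16 ± 0.30, with 0.48 ± 0.18 without untreated 2 and -0.059 without untreated 1. For *Taldo1*, transaldolase, it was 0.25 ± 0.21. Treated 2 was the lowest treated tumour for all 5 genes.

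Both metallothioneins lay higher in each treated tumour than in each untreated one. *Mt1* (chr8:94179082-94180327, plus strand) had 86.4, 152 and 146 CPM in untreated and 157, 176 and 172 CPM in treated tumours, with untreated 1 well below the other 5. The means were 168 ± 9.90 CPM in treated and 128 ± 36.1 CPM in untreated tumours (SD, n = 3), a log2 fold change of 0.40 ± 0.26 (SE; edgeR, adjusted p = 0.632), which was 0.17 without untreated 1. *Mt2* (chr8:94172664-94173568, plus strand), its neighbour on chromosome 8, had 93.9, 143 and 175 CPM in untreated and 181, 208 and 229 CPM in treated tumours. Its lowest treated value was close to its highest untreated one. The means were 206 ± 24.1 CPM in treated and 137 ± 40.7 CPM in untreated tumours (SD, n = 3), a log2 fold change of 0.59 ± 0.27 (SE; edgeR, adjusted p = 0.592), and 0.37 without untreated 1. Together the 2 genes had 180.3, 294 and 321 CPM in untreated and 338, 383 and 401 CPM in treated tumours. The ratio of *Mt2* to *Mt1* was 1.09, 0.943 and 1.20 in untreated and 1.15, 1.18 and 1.33 in treated tumours. *Slc30a1*, a zinc exporter and a target of MTF1 like the metallothioneins, had 28.7, 29.0 and 30.7 CPM in untreated and 26.6, 24.6 and 26.5 CPM in treated tumours. It was the member whose treated values all lay below the untreated ones, by a log2 fold change of -0.19 ± 0.18 (SE; edgeR, adjusted p = 0.712). *Mtf1* itself was lowest in untreated 2, and its log2 fold change was 0.28 ± 0.33 with that library and -0.025 ± 0.12 without it.

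The promoter windows of *Mt1* and *Mt2* are shown because these genes come first in the set order of windows and carry several metal response element cores. The core was searched as TGCACNC or TGCGCNC on both strands, where neighbouring matches may overlap, and capitals mark the matches on the plus strand shown. It was in 12 of the 50 member windows (24%) and in 25.7% of all promoters, and 3 or more matches were in 1.97% of all. Members with 3 or more were *Mt1*, *Mt2* and *Gclm*. *Gclm* has 3, beginning at -138, -72 and 28, and its groups overlapped with a log2 fold change of 0.16 ± 0.22. *Mt1* has 3, beginning at -23, 3 and 21 from the RefSeq start, in chr8:94178839-94179138, plus strand. *Mt2* has 4, beginning at -223, -128, -50 and 5, in chr8:94172368-94172667, plus strand, and also the antioxidant core TGACTCAGC at -79, whose first 7 letters are the AP-1 motif TGACTCA. GENCODE M21 has further *Mt1* transcripts that start downstream of this window. *Slc30a1* has 2 metal response element cores in its window and also 1 antioxidant core.
Mt1: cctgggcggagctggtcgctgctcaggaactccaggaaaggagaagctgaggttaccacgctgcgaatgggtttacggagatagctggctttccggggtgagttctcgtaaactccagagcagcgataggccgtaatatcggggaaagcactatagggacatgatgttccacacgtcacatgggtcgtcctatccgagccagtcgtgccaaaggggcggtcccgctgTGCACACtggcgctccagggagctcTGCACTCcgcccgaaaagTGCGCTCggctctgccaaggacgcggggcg
Mt2: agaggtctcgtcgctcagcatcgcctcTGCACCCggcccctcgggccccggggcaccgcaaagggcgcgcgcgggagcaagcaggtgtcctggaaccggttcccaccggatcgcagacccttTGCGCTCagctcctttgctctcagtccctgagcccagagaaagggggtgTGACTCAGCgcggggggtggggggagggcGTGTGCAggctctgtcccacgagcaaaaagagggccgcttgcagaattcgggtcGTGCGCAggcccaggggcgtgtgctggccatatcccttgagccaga

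Other genes of the same pathways were read from 8 lists that hold none of the 46, 176 genes in all, 147 of them tested and 0 called by edgeR. DESeq2 called 1 of them lower, *Txnip*, with all 6 libraries, and without untreated 2 it called *Txnip* lower and 2 higher, *Ptgs2* and *Txn1* (the last named after its values were seen). By edgeR, 79 were above 0 and 68 below, with a median log2 fold change of 0.031, and 8 were higher and 4 lower at an unadjusted p under 0.05, together 8.16% of them against 8.17% of all tested genes. The list of other NADPH genes had 14 of 16 above 0 and a median of 0.38, with 4 higher at an unadjusted p under 0.05 (25% of 16, against 3.32% of all tested genes higher), among them the mitochondrial folate enzyme *Mthfd2* at 1.01 ± 0.37 and its cytosolic relative *Mthfd1* at 0.68 ± 0.28. Other NRF2 pathway genes had 14 of 22 above 0 and a median of 0.19, which was 0.030 without treated 3, with the small MAF protein *Maff* at 0.81 ± 0.32 and the efflux pump *Abcc1* at 0.52 ± 0.22, or 0.13 with the GC and length correction. Other glutathione genes were split 11 to 10 with a median of 0.012, whose sign turned with the library left out, from -0.11 to 0.19, the lowest without treated 3 and the highest without untreated 2. *Glrx5*, a mitochondrial glutaredoxin of iron-sulphur assembly, was at 0.66 ± 0.27, and *Gpx8*, of the endoplasmic reticulum, at -1.10 ± 0.51, or -0.25 ± 0.17 without untreated 2.

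The thioredoxin list was split 7 to 8 with a median of -0.056 and 2 of 15 genes lower at an unadjusted p under 0.05 (13.3%, against 4.85% of all tested genes lower). *Txnip*, which binds and inhibits thioredoxin, had 311, 481 and 302 CPM in untreated and 105, 132 and 82.6 CPM in treated tumours, without overlap. Its log2 fold change was -1.78 ± 0.29, with an adjusted p of 0.592 from edgeR and 0.000218 from DESeq2. *Sesn1*, a sestrin, was at -1.10 ± 0.38. Other metal genes had 5 above 0 and 14 below and a median of -0.30, which was -0.0069 without untreated 2, with the copper transporter *Atp7a* at -0.78 ± 0.27 and the zinc importer *Slc39a6* at 0.44 ± 0.19. Other iron and heme genes were split 13 to 13, with 0 at an unadjusted p under 0.05 and a median of 0.00437, and *Hfe*, a regulator of iron uptake, was at -0.95 ± 0.42 and the heme synthesis enzyme *Cpox* at 0.35 ± 0.17. Other ferroptosis genes had 11 of 16 above 0 and a median of 0.15, or 0.084 without treated 3 and 0.27 without untreated 1. *Ptgs2*, cyclooxygenase 2, was at 1.08 ± 0.47 there, with 34.2, 129 and 62.0 CPM in untreated and 181, 117 and 176 CPM in treated tumours, and DESeq2 without untreated 2 called it at 1.71 (adjusted p = 1.96e-06), while the channel *Vdac2* was at 0.43 ± 0.19. Genes that produce oxidants had 5 above 0 and 8 below, with a median of -0.35, which was -0.044 with DESeq2, -0.018 with no filter, -0.10 without treated 1, -0.16 without untreated 2, -0.18 without untreated 3 and -0.63 without treated 2. *Cybb*, the catalytic subunit of the phagocyte NADPH oxidase, had 39.9, 63.6 and 38.0 CPM in untreated and 12.7, 32.8 and 16.3 CPM in treated tumours, without overlap, at -1.19 ± 0.40, and its partner *Ncf1* was at -0.41 ± 0.24. Both are phagocyte genes, and the macrophage marker sums beside *Hmox1* were also lower in treated 1 and 3 than in any untreated tumour; their part in these values was not tested.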

How the data were processed

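The authors deposited 1 table of whole-number counts for each sample, with a row for each gene symbol. TopHat, with no version, and the build mm10 are named per the submitters' processing notes. How reads were counted, with which strand setting and annotation, is not given in the sources used here. Per the labels, the kit used on Trizol-extracted total RNA keeps the strand. Because the strand setting is not given, the counts of *Aifm2*, *G6pdx*, *Me1*, *Mtf1*, *Prdx2*, *Prdx5*, *Slc30a1* and *Sqstm1*, whose exons overlap a gene on the other strand, may include reads of that gene.

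Samples were grouped by title. Genes were filtered with filterByExpr (smallest count 10, 12517 kept), scaled with TMM and compared with the quasi-likelihood test of edgeR 4.0.16 in R 4.3.3, 2-sided, with Benjamini-Hochberg adjustment over all tested genes and a threshold of 0.05. CPM use the TMM library sizes. Each SE was obtained from the log2 fold change and the square root of its F statistic. The depth of 4680295 to 8019294 counts per library leaves a wide counting error for genes with few counts, such as *Osgin1*. With 3 tumours a group the smallest exact permutation p is 0.1, and no such test was made. Every pair of libraries differed beyond sampling noise (chi-square per gene 5.64 or more). The steps were tested on simulated data of 12517 genes, 100 of them changed 2-fold and 100 changed 4-fold. Noise as large as in all 6 libraries let 4 of the 2-fold and 45 of the 4-fold changes be recovered. Another 4 genes were called falsely. Noise as small as in the set lacking untreated 2 let 72 and 93 be recovered, while 17 genes were called falsely. Both simulations kept 3 libraries a group, and these counts are for edgeR. The fit without untreated 2 has fewer untreated libraries, so 72 and 93 may overstate what it recovers. A gene not called with all 6 libraries may therefore still have changed 2-fold.

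The alternatives were DESeq2 size factors, DESeq2 1.42.0, limma-voom (limma 3.58.1), all genes unfiltered, a minimum mean of 5 CPM, the replicate number as a block, a loess correction for GC content and length (span 0.3), each library left out in turn, and DESeq2 without untreated 2. Lengths, GC content and coordinates are from GENCODE M21 (mm10). Of the symbols 22148 matched by name and 674 by synonym, which gave a length and GC content for 99.4% of tested genes. Iron response elements and selenocysteine codons were read from GENCODE M21 transcripts and promoters from RefSeq (GRCm38.p6). Protein sequences were not used here.

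The members, groups, lists and rules were chosen with earlier results of these data known. Every member is named. Values in all 6 tumours are given for *Nfe2l2*, *Keap1*, *Hmox1*, *Mt1* and *Mt2* and, in each group, for the 3 members with the smallest unadjusted p and the 2 with the highest mean CPM. Those of *Tfrc* are given outside this rule, chosen after its values were seen. From each pathway list at most the 2 genes with the smallest unadjusted p are named.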

Additional observations from a re-analysis of the deposited data

How the results depend on the processing

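The limits are the number of tumours, the library that stood apart and low counts in some members. Over 14 alternatives 28 members kept the direction of their log2 fold change in each that gave them a value, and 18 changed it in at least 1. *Osgin1* was left out by the filter at a mean of 5 CPM. DESeq2 called 45 genes with all 6 libraries and 232 without untreated 2, 3 of them members, where edgeR called 0 genes and 0 members. Leaving out 1 library gave 0 to 4 genes called by edgeR, the 4 without untreated 3, and 0 to 17 members at an unadjusted p under 0.05 against 4 with all. That count was 7 with the GC and length correction and 17 with DESeq2 without untreated 2, where the adjusted p of *Nqo1*, *Osgin1* and *Gsta4* was NA. The correlation of deviations between same-numbered tumours was -0.18, -0.11 and 0.11. No untreated tumour correlated best with the treated tumour of its own number. Deviations from a mean of so few libraries cannot decide whether the numbers mark pairs, and the titles do not state it. The replicate block gave 6 members at an unadjusted p under 0.05 and called 0.

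Medians of log2 fold changes moved as follows. For the NRF2 regulators the median was -0.17 with the GC and length correction and -0.14 to -0.022 with 1 library left out. The peroxide and superoxide enzymes ran from -0.020 to 0.26, the list of other glutathione genes had -0.049 with the correction, and that of other ferroptosis genes 0.030 with DESeq2 without untreated 2. Iron and heme handling ran from -0.16 to 0.24, and lipid peroxidation control was 0.072 with DESeq2 without untreated 2. The list of other NRF2 genes ran from 0.030 to 0.26. The thioredoxin list had 0.021 with DESeq2, 0.036 with no filter, 0.23 with the GC and length correction, 0.025 with DESeq2 without untreated 2 and -0.12 to -0.011 with 1 library left out. The list of other iron genes had -0.086 with the correction and -0.086 to 0.094 with 1 library left out, and that of other metal genes 0.063 with DESeq2 without untreated 2 and -0.41 to -0.0069 with 1 library left out.

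Single genes that changed direction with the GC and length correction were *Keap1* (-0.035), *Cat* (0.0095) and *Acsl4* (0.28). With DESeq2 without untreated 2 they were *Keap1* (-0.031), *Sqstm1* (0.036), *Gsta4* (-0.069), *Gpx4* (0.081), *Prdx4* (0.18), *Prdx5* (0.011), *Acsl4* (0.34) and *Mtf1* (-0.021). *Nqo1* was at -0.0066 with DESeq2 size factors and -0.0095 with DESeq2, *Gsta4* at -0.013 with limma-voom and *Osgin1* at 0.015 with the replicate block. With 1 library left out the values ran from -0.035 to 0.41 for *Keap1*, -0.077 to 0.052 for *Bach1*, -0.25 to 0.033 for *Sqstm1*, -0.21 to 0.51 for *Nqo1*, -0.0048 to 0.28 for *Gclm*, -0.54 to 0.30 for *Osgin1* and -0.19 to 0.27 for *Gsta4*. They ran from -0.97 to 0.077 for *Gpx4*, -0.095 to 0.34 for *Prdx1*, -0.12 to 0.34 for *Prdx3*, -0.80 to 0.18 for *Prdx4*, -0.64 to 0.0082 for *Prdx5*, -0.032 to 0.26 for *Sod2* and -0.087 to 0.090 for *Cat*. The remaining ranges were -0.16 to 0.93 for *Tfrc*, -0.39 to 0.34 for *Acsl4*, -0.059 to 0.48 for *G6pdx* and -0.025 to 0.48 for *Mtf1*. Without a change of direction, values moved by over 1.5 times and ran from 0.12 to 0.25 for *Prdx2*, 0.047 to 0.14 for *Gpx1*, -0.56 to -0.24 for *Blvrb*, -0.20 to -0.051 for *Aifm2*, 0.17 to 0.40 for *Me1*, 0.15 to 0.39 for *Taldo1*, -1.34 to -0.69 for *Sesn1*, 0.72 to 1.70 for *Ptgs2* and -0.57 to -0.26 for *Ncf1*. *Srxn1* was at 0.084 and *Slc40a1* at -0.24 with the GC and length correction, and *Hmox1* at 1.17 with limma-voom. The cause of these changes was not tested.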
